A study of Mus musculus with 6 samples.

Results

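The genes described here build the ligands that L-selectin recognises: 2 mucin-type carrier proteins (Glycam1 and Madcam1) and 6 enzymes that make or decorate their sugar chains (Chst4, Chst2, Fut7, Fut4, Gcnt1 and B3gnt3). They were taken by symbol from the deposited gene tables, where they are 8 of 51826 gene symbols, and all 8 were found. The list was selected on measured values of the same GFPpos and GFPneg libraries, so the difference of these 8 genes between the sorted fractions is given as a description, without a test.

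All 6 libraries came from C57B6/N mice of 1 genotype, SMAcreERT2/N1ICD, at postnatal day 24. Every mouse, including those behind the GFPneg libraries, carried the CreERT2 driven by the smooth muscle actin (SMA) promoter and the allele for the Notch1 intracellular domain (N1ICD, the constitutively active part of the receptor), and received 1 dose of tamoxifen at day 21, which was 72 hours before the cells were isolated. From each of 3 pools of 2 to 3 mice, mammary basal cells were sorted into a GFPpos and a GFPneg fraction, which gave 3 libraries per group and 3 pairs. The labels do not say what GFP reports, no group here is free of Cre, N1ICD or tamoxifen, and the SMA promoter is also active in vascular smooth muscle and pericytes. Because the mice of a replicate were pooled, the spread between libraries is spread between pools.

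L-selectin is an adhesion receptor on leukocytes, and its best known ligands sit on high endothelial venules, the vessels through which lymphocytes enter lymph nodes. There, carrier proteins rich in serine and threonine receive O-linked sugar chains that are branched, extended, sulfated, sialylated and fucosylated until they end in sulfated sialyl Lewis x. Glycam1 is also known as a secreted protein of the mammary epithelium and of milk, where its sugars differ from those of the venule form.

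The 150 bases before the annotated start of both carrier genes are shown because Glycam1 was the most abundant of the 8 genes and Madcam1 had the fewest GFPneg counts. At both genes the RefSeq start is also the GENCODE start. Sequences are the RefSeq windows on GRCm38.p6, written 5′ to 3′ on the strand of the gene: Glycam1 from chr15:103565082-103565231 (minus strand) and Madcam1 from chr10:79664409-79664558 (plus strand). Capitals mark matches to a motif, a STAT-type match in Glycam1 and 2 NF-kappaB-type matches in Madcam1.
Glycam1: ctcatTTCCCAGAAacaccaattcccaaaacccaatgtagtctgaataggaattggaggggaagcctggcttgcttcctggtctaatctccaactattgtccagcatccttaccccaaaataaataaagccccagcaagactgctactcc
Madcam1: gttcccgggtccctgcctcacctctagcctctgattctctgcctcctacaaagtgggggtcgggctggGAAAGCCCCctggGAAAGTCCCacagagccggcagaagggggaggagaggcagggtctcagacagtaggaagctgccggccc

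5 motifs were searched on both strands in windows from 250 bases before to 50 bases after each start, and the motifs were chosen after the windows of the 8 genes had been looked at. The NF-kappaB-type letters GGGNNTTTC occurred in 4.36% of 32851 windows. They matched Madcam1 as GAAAGCCCC and GAAAGTCCC, at 82 and 69 bases before the start, on the minus strand. They also matched Fut4 at 31 bases before its RefSeq start. That start lies 271 bases inside the GENCODE exon of Fut4, so the match lies within the exon. The STAT-type letters TTCNNNGAA were found in 8.30% of all windows and, of the 11 windows of these 8 genes, in that of Glycam1, at 145 bases before the start. The AP-1 letters TGANTCA occurred in 7.81% of all windows and matched Chst4 at 59 bases before its RefSeq start. That start lies 406 bases inside the gene as GENCODE draws it and 20 bases from the nearest GENCODE transcript start. TATAAA was present in 13.6% of all windows and in 1 of the windows of Gcnt1. GTGGGAA, the letters bound by RBPJ, the DNA-binding partner of N1ICD, occurred in 6.38% of all windows and in 0 of the 11, which says only that these letters are not in those windows.

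Sequencing depth was uneven. GFPneg replicate 1 held 611465 gene counts in 7454 detected genes, against 9912610 to 16043492 counts and 15322 to 22386 genes in the other 5 libraries. In that library 66.4% of the reads fell in no feature, against 28.8% to 40.5% elsewhere, and 5 abundant noncoding features took 69.2% of its gene counts and 22.7% to 34.7% elsewhere. Across tested genes its log2 values correlated at 0.556 to 0.610 with the other libraries, which correlated at 0.721 to 0.902 among themselves. Levels below are in CPM, with library sizes scaled by TMM factors. The factor was 0.501 in GFPneg replicate 1 and 1.05 to 1.22 elsewhere, and a lower factor raises the CPM of a library. With this scaling 1 count was worth 3.28 CPM in GFPneg replicate 1 and 0.0513 to 0.0911 CPM elsewhere. Fitted values, calls and the overlap of groups are therefore also given without that library. The libraries carried the basal markers that their label names: all 10 genes of that list, among them Krt5, Krt14 and Krt17, were detected in all 6 libraries, with summed levels of 6857 to 8303 CPM in GFPpos and 9787 to 15182 CPM in GFPneg.

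Glycam1 (ENSMUSG00000022491.5, mm10 chromosome 15, 103562759 to 103565081, minus strand) encodes a small secreted mucin-like protein that carries L-selectin ligand sugars. Its level was 7101, 7330 and 13977 CPM in GFPpos replicates 1, 2 and 3, and 2380, 25.2 and 312 CPM in GFPneg replicates 1, 2 and 3. All GFPpos libraries lay above all GFPneg libraries, but the GFPneg values spanned a wide range and the highest of them came from the shallow library, where 726 counts were read. In each GFPpos library Glycam1 ranked 6 among all genes by count, directly after the 5 abundant noncoding features, and took 0.743%, 0.836% and 1.70% of all gene counts. In GFPneg replicates 1, 2 and 3 it ranked 22, 4860 and 343. The GFPpos level exceeded that of the GFPneg partner 2.98-fold (95% exact counting interval 2.77 to 3.21) in pair 1, 291-fold (267 to 319) in pair 2 and 44.8-fold (43.3 to 46.3) in pair 3. The direction was the same in the 3 pairs.

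Madcam1 (chromosome 10, 79664559 to 79668537, plus strand), a membrane adhesion molecule of mucosal venules with a mucin-like stretch, was nearly confined to the GFPpos libraries. It reached 10.9, 16.3 and 26.9 CPM in GFPpos (120, 210 and 518 counts) and 0, 0.0513 and 0 CPM in GFPneg, where the only read was 1 count in replicate 2. The groups did not overlap. The 0 counts of GFPneg replicate 1 were set at a floor of 3 counts, or 9.84 CPM, against which the pair 1 fold was 1.11. The 95% exact counting interval of pair 1 began at 0.885, so this pair says little about Madcam1. The fold was 318 (95% exact counting interval 56.5 to 12631) in pair 2. In pair 3 it was 98.4 against a floor of 0.273 CPM, with an interval that began at 79.7.

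Madcam1 and Glycam1 differed in level by far more than their length: per kilobase of annotated exon, the GFPpos mean was 4439 CPM for Glycam1 and 12.6 CPM for Madcam1.

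**Figure D1:**
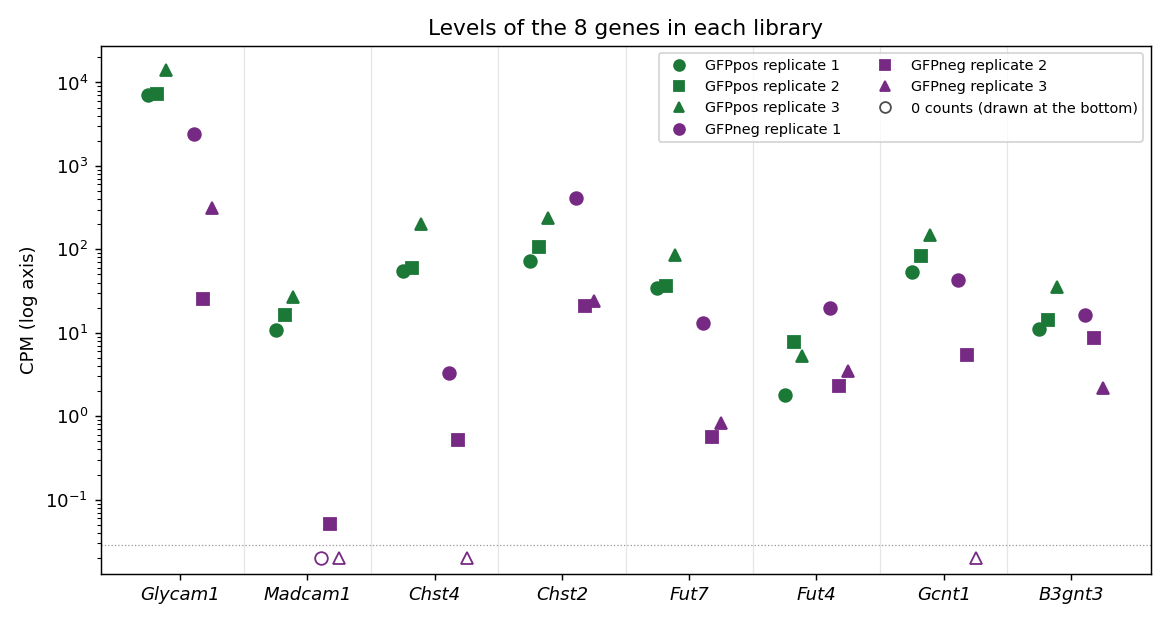
Level of each of the 8 genes (CPM, log axis) in the 3 GFPpos (green) and 3 GFPneg (purple) libraries, with 1 symbol per library and open symbols at the bottom for 0 counts. For Glycam1, Madcam1, Chst4, Fut7 and Gcnt1 every green symbol lies above every purple one, and the GFPneg replicate 1 circle is the highest purple symbol for every gene except Madcam1.

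Of the sulfotransferases, Chst4 (chromosome 8, 110029153 to 110039740, minus strand) adds the sulfate of the venule epitope to N-acetylglucosamine on O-linked chains. It was read at 55.2, 60.4 and 204 CPM in GFPpos and at 3.28, 0.513 and 0 CPM in GFPneg, which stand for 1, 10 and 0 counts. The groups did not overlap, and GFPpos replicate 3 stood well above the other two GFPpos libraries. The fold within pairs was 16.8 (95% exact counting interval 3.01 to 666) in pair 1 and 118 (63.6 to 246) in pair 2. In pair 3 it was 746 against the floor of 3 counts, with an interval that began at 606. In sum over libraries, 5312 counts were read in GFPpos and 11 in GFPneg.

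Chst2 (chromosome 9, 95399292 to 95406722, minus strand) acts on the same sugar and shares this task with Chst4 in lymph nodes, but is made in many more tissues. It was present at 72.9, 106 and 238 CPM in GFPpos and at 416, 21 and 24.3 CPM in GFPneg. The groups overlapped because GFPneg replicate 1, with 127 counts, held the highest level of all 6 libraries. In pair 1 the GFPpos level was 0.175 of the GFPneg level (95% exact counting interval 0.145 to 0.213), whereas it was 5.03-fold higher in pair 2 (4.50 to 5.63) and 9.79-fold higher in pair 3 (8.65 to 11.1). Without GFPneg replicate 1 the groups of Chst2 did not overlap, but the share of all genes that separate without it was not taken. The mean was 139 ± 87.4 CPM in GFPpos and 154 ± 227 CPM in GFPneg (SD, n = 3 each), so over all 6 libraries the difference was smaller than the spread between replicates.

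Fut7 (chromosome 2, 25423267 to 25426374, plus strand), the fucosyltransferase that completes sialyl Lewis x in leukocytes and venules, was higher in the GFPpos library of each pair. Its levels were 34.8, 36.5 and 84.8 CPM in GFPpos and 13.1, 0.565 and 0.820 CPM in GFPneg, where 4, 11 and 9 counts were read. The groups did not overlap. The fold was 2.65 (95% exact counting interval 1.03 to 9.79) in pair 1, 64.6 (35.8 to 130) in pair 2 and 103 (54.4 to 227) in pair 3.

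Fut4 (chromosome 9, 14748320 to 14752393, minus strand), a related fucosyltransferase that makes Lewis x and contributes to selectin ligands on leukocytes, showed no such split. It was read at 1.81, 7.78 and 5.29 CPM in GFPpos and 19.7, 2.31 and 3.46 CPM in GFPneg. The groups overlapped with and without GFPneg replicate 1, whose value rests on 6 counts. The GFPpos level was 0.0921 of its partner in pair 1 (95% exact counting interval 0.0357 to 0.280) and 3.37-fold (2.35 to 4.90) and 1.53-fold (1.04 to 2.28) higher in pairs 2 and 3. Fut4 was the lowest of the 8 genes per kilobase in GFPpos, at a mean of 1.22 CPM.

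Gcnt1 (chromosome 19, 17326141 to 17372844, minus strand) makes the core-2 branch on which sialyl Lewis x of O-linked chains is often built. It was found at 54.2, 83.2 and 148 CPM in GFPpos and at 42.6, 5.39 and 0 CPM in GFPneg. The groups did not overlap, but the lowest GFPpos library and GFPneg replicate 1, with 13 counts, were close. In pair 1 the fold was 1.27, with a 95% exact counting interval that includes 1 (0.738 to 2.40). It was 15.4 (12.6 to 19.0) in pair 2. In pair 3 it was 543 against the floor of 3 counts, with an interval that began at 441.

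B3gnt3 (chromosome 8, 71690756 to 71701789, minus strand) extends the core-1 branch, which can carry the same sulfated end. Its levels were 11.2, 14.2 and 35.5 CPM in GFPpos and 16.4, 8.62 and 2.19 CPM in GFPneg. The groups overlapped through GFPneg replicate 1, where 5 counts were read, and did not overlap without it. The fold was 0.685 (95% exact counting interval 0.286 to 2.15) in pair 1, 1.64 (1.32 to 2.04) in pair 2 and 16.2 (10.8 to 25.5) in pair 3. All intervals cover counting error only.

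**Figure D2:**
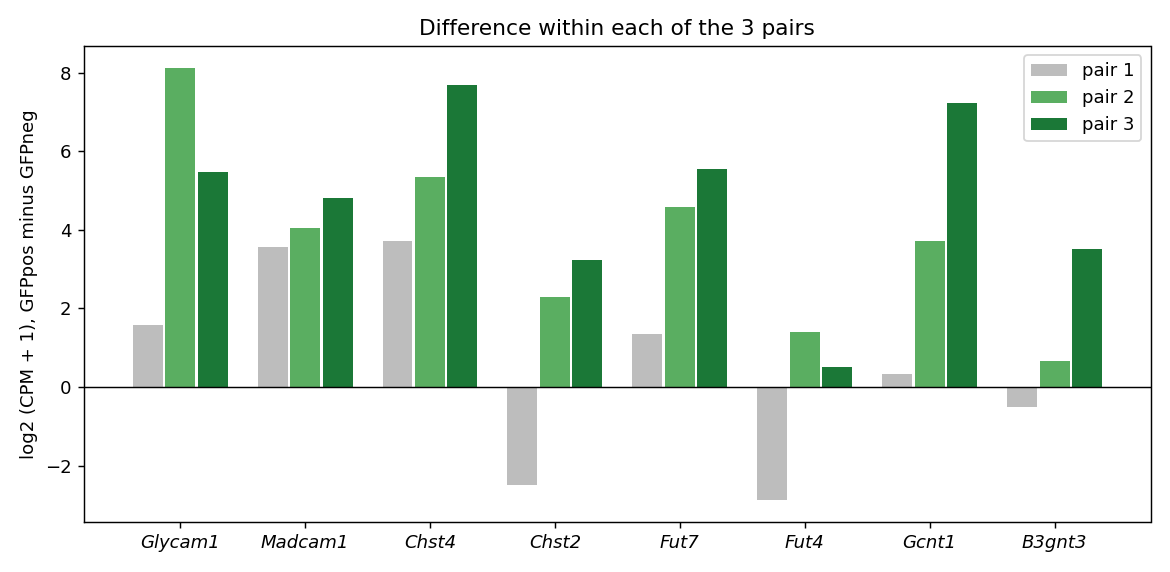
Difference in log2(CPM + 1) between the GFPpos and the GFPneg library of each pair, for the 8 genes. Chst2, Fut4 and B3gnt3 point down in pair 1 (-2.50, -2.88 and -0.51) and up in pairs 2 and 3, while the other 5 genes point up in the 3 pairs, with Gcnt1 at 0.34 in pair 1.

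The order of levels per kilobase of annotated exon in GFPpos was Glycam1 (mean 4439 CPM per kilobase), Chst4 (46.7), Fut7 (22.1), Chst2 (19.0), Gcnt1 (16.5), Madcam1 (12.6), B3gnt3 (6.64) and Fut4 (1.22). Glycam1 stood apart from the rest, with a lowest library of 3329 CPM per kilobase against 89.3 for the highest Chst4 library. From Chst4 down to B3gnt3 each gene overlapped its neighbour in range over the 3 libraries. Within each GFPpos library the order was nevertheless the same, except that Gcnt1 lay as high as Chst2 in replicate 2, at 14.4 CPM per kilobase each. Fut4 lay below B3gnt3 in each library, at no more than 1.91 against no less than 3.68 CPM per kilobase. In GFPneg, Madcam1 and Chst4 held the lowest means, 0.0119 and 0.554 CPM per kilobase, and Glycam1 the highest, 425.

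In an edgeR fit over all 13873 genes that passed a filter on low counts, the log2 fold change of GFPpos over GFPneg was 8.79 (SE 1.57) for Madcam1 and 8.17 (SE 1.17) for Chst4. It was 4.95 (SE 1.20) for Fut7, 3.40 (SE 0.99) for Glycam1, 3.23 (SE 1.28) for Gcnt1 and 1.39 (SE 0.94) for B3gnt3. Chst2 and Fut4 stood at -0.06 (SE 0.87) and -0.46 (SE 1.23). All 8 genes passed the filter, but Madcam1, Chst4, Fut7 and Gcnt1 only through their GFPpos libraries. The fitted values of Madcam1 and Chst4 depend on how counts near 0 are treated. With the pair as a block, Glycam1 had 5.24 (SE 0.57) and Chst2 1.42 (SE 0.68). Without GFPneg replicate 1, Glycam1 had 5.84 (SE 0.93), Chst2 2.63 (SE 0.47), Fut4 0.80 (SE 1.13), Gcnt1 5.07 (SE 1.02) and Fut7 6.26 (SE 0.65). Chst2 and Fut4 thus became positive when that 1 library was left out. Chst2, which was near 0 over all 6 libraries, was also positive without GFPpos replicate 1 (0.24) and without GFPpos replicate 2 (0.09), while the other 6 genes were positive in each of the 6 fits that left out 1 library.

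The fit called 2 of the 8 genes higher (Madcam1 and Chst4) and 0 lower at an adjusted p (Benjamini-Hochberg over all genes) below 0.05, where 0.0577% of all genes tested were called higher and 0.00721% lower. With the pair as a block 5 were called higher (Chst4, Fut7, Gcnt1, Glycam1 and Madcam1), with 0.31% of all genes higher and 0.13% lower. Without GFPneg replicate 1 another set of 5 was called higher (Chst2, Chst4, Fut7, Glycam1 and Madcam1), with 0.412% of all genes higher and 0.19% lower. Leaving out GFPpos replicate 3 or GFPneg replicate 2 left 0 of the 8 called in edgeR, with 4 of them at an unadjusted p below 0.05 in each fit. Those fits called 0.0136% and 0.0206% of all genes higher. Of all genes, 169 of 14729 without GFPpos replicate 3 were higher at an unadjusted p below 0.05. Without GFPneg replicate 2 it was 965 of 14537. DESeq2 on all 6 libraries called 3 of the 8 and 0.332% of all genes higher. Every GFPpos library lay above every GFPneg library for 5 of the 8 genes and for 9.53% of the 13873 genes tested. The same share without GFPneg replicate 1 was not taken, and groups separate more easily when fewer libraries are compared. Nothing is read from these counts, because this contrast chose the genes.

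Within the GFPpos group, 7 of the 8 genes were highest in replicate 3, all but Fut4. GFPpos replicate 3 exceeded the mean of the other two GFPpos libraries 3.53-fold for Chst4, 2.80-fold for B3gnt3, 2.67-fold for Chst2 and 2.38-fold for Fut7. The factor was 2.16 for Gcnt1, 1.98 for Madcam1, 1.94 for Glycam1 and 1.10 for Fut4, which gives a median of 2.27 over the 8 genes. Over the 10160 tested genes with a GFPpos mean of at least 5 CPM the median was 0.985, and 19.0% of them reached 1.5. Endothelial markers moved the same way: each of the 15 genes of that list reached 1.5 in replicate 3, with a median of 2.63. The summed pericyte markers were 1.95-fold and the summed immune cell markers 4.43-fold higher there, the latter from few counts (14 to 489 in a GFPpos library).

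Because these genes are known from venules, the endothelial level of each library was set beside them. The 15 endothelial markers, headed by Pecam1, Cdh5 and Kdr, summed to 1695, 1513 and 4287 CPM in GFPpos and 3285, 1646 and 1096 CPM in GFPneg, and all 15 were detected in all 6 libraries. The summed endothelial level thus overlapped between the groups. In these bulk libraries, fewer cells of a type and less RNA per cell cannot be told apart. Expressed per 1000 endothelial counts of the same library, Glycam1 was at 4191, 4844 and 3260 in GFPpos and 725, 15.3 and 285 in GFPneg. On the same scale Chst4 was at 32.6, 39.9 and 47.5 in GFPpos and 0.998, 0.312 and 0 in GFPneg. Fut7 was at 20.5, 24.1 and 19.8 in GFPpos and 3.99, 0.343 and 0.748 in GFPneg. The GFPpos libraries lay closer together on this scale than in CPM for Glycam1, Chst4 and Fut7, and both groups stayed separate for each of these genes. Madcam1, at 6.42, 10.8 and 6.27 in GFPpos and at most 0.0312 in GFPneg, was separate too. Gcnt1 ranged from 32.0 to 55.0 in GFPpos and from 0 to 13.0 in GFPneg. B3gnt3, which overlapped in CPM, did not overlap here, at 6.63 to 9.36 against 1.99 to 5.24. Chst2 and Fut4 still overlapped, with Chst2 highest in GFPneg replicate 1 at 127.

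**Figure D3:**
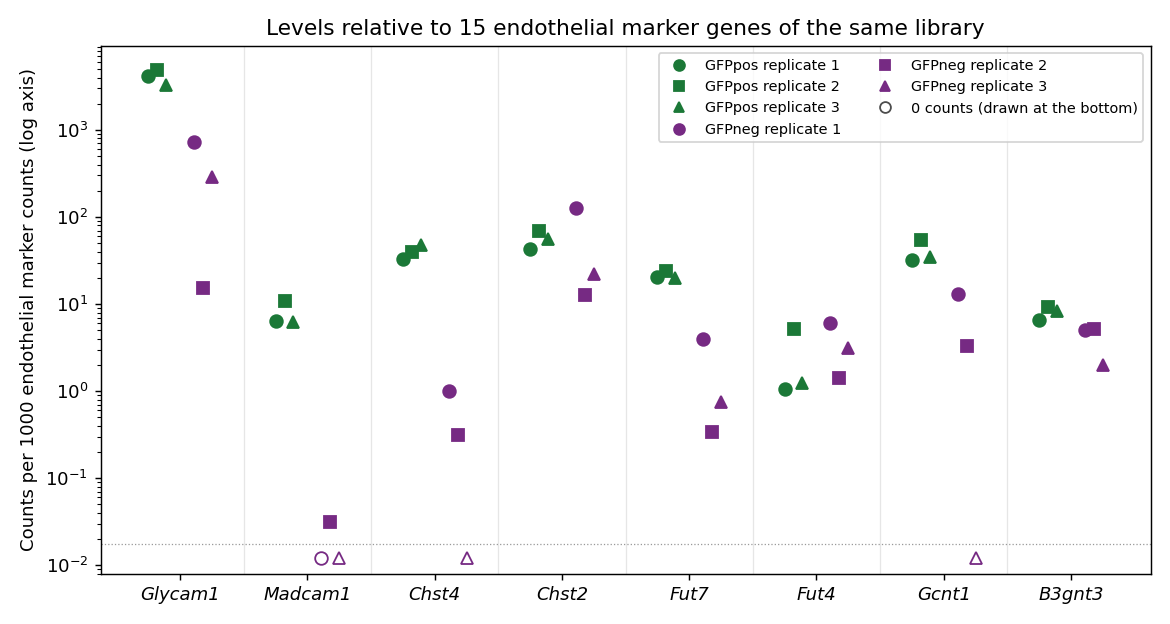
Counts of each of the 8 genes per 1000 counts of 15 endothelial marker genes of the same library (log axis), with 1 symbol per library and open symbols for 0 counts. The 3 green GFPpos symbols of Fut7 lie between 19.8 and 24.1, and those of Glycam1, Madcam1, Chst4, Fut7, Gcnt1 and B3gnt3 lie above all purple GFPneg symbols. The share of all genes that separate on this scale was not taken.

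Ratios within the set were also taken, since Glycam1 has a mammary source as well. Chst4 stood at 7.77, 8.24 and 14.6 per 1000 Glycam1 counts in GFPpos and at 1.38, 20.4 and 0 in GFPneg. Fut7 stood at 4.90, 4.98 and 6.07 in GFPpos and at 5.51, 22.4 and 2.63 in GFPneg. The Fut7 to Glycam1 ratio therefore overlapped between the groups although both genes differed, and the Chst4 to Glycam1 ratio overlapped through GFPneg replicate 2, where Glycam1 was lowest.

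Markers of other sources differed between the fractions in either direction. Of the 12 milk genes, Csn2, Wap and Lalba were at 0 counts in all 6 libraries and Csn1s1 held at most 5 counts in any library, while Csn3 was at 12.8, 52.1 and 4.31 CPM in GFPpos and 0, 222 and 25.1 CPM in GFPneg. The whole list summed to 746 to 1343 CPM in GFPpos and 334 to 779 CPM in GFPneg, most of it from Mfge8 in GFPpos (620 to 1143 CPM), a protein of milk fat globules. The list of 12 genes of activated venules summed to 1769 to 3070 CPM in GFPpos and 575 to 1744 CPM in GFPneg (at most 911 without GFPneg replicate 1), without overlap, and 10 of its 12 genes were detected in all 6 libraries. Its first genes in order, Ccl21a (a chemokine of these venules) and Enpp2 (autotaxin, which they secrete), were at 224 to 370 and 321 to 766 CPM in GFPpos and at 1.59 to 13.1 and 11.6 to 184 CPM in GFPneg. Reads of Ccl21a may be shared with near-identical copies of that gene. Nkx2-3, a transcription factor of mucosal venules, had 9 counts in GFPneg replicate 2 and 0 in the other 5 libraries. Not every gene of the venule list separated. Icam1 (478 to 750 against 397 to 882 CPM) and Ltbr overlapped between the groups with and without GFPneg replicate 1. Map3k14 was at 28.1, 22.9 and 24.9 CPM in GFPpos and 0, 29.1 and 35.5 CPM in GFPneg. It overlapped over all 6 libraries and was lower in GFPpos, without overlap, when GFPneg replicate 1 was left out. Sele, Ackr1, Ubd and Relb overlapped through that library, whose venule sum of 1744 CPM rests on 532 counts. Pericyte markers (9 genes) summed to 421 to 897 CPM in GFPpos and 59.0 to 303 CPM in GFPneg (254 to 303 without GFPneg replicate 1). By themselves, Cspg4, Notch3, Des and Mcam were higher in GFPpos without overlap. Rgs5, Pdgfrb, Kcnj8, Abcc9 and Anpep overlapped with and without GFPneg replicate 1. Luminal markers (13 genes) summed to 837 to 1180 against 380 to 760 CPM (756 to 760 without GFPneg replicate 1). Over all 6 libraries Krt19, Kit, Esr1 and Cldn3 were higher in GFPpos without overlap by themselves. The rest of the luminal list, with Krt8, Krt18, Epcam and Cd24a, overlapped, and Elf5, Foxa1 and Cd24a had negative log2 fold changes. Lymphatic endothelial and fibroblast markers were lower in GFPpos as sums, without overlap. Lymphatic endothelial markers (6 genes) summed to 178 to 201 against 217 to 416 CPM (217 to 270 without GFPneg replicate 1). Of these 6 genes only Reln was lower without overlap by itself, at 17.6 to 45.1 against 62.3 to 110 CPM. Lyve1 and Pdpn had positive log2 fold changes (0.63 and 0.77), and the other 4 had negative ones. Fibroblast markers (9 genes) summed to 346 to 443 against 777 to 1703 CPM (1365 to 1703 without GFPneg replicate 1). Most of that sum in GFPneg replicates 2 and 3 was Postn (1152 and 1469 CPM), and no gene of this list separated by itself over all 6 libraries. Of its 7 tested genes, Fbln1 had a positive log2 fold change (0.32) and the other 6 had negative ones. Immune cell markers (15 genes) summed to 1.27 to 25.4 CPM in GFPpos and 1.75 to 23.0 CPM in GFPneg, with overlap (1.75 to 3.10 CPM without GFPneg replicate 1). Ptprc, the common leukocyte antigen, had 6, 32 and 83 counts in GFPpos and 0 in each GFPneg library. The part of any of these cell types in the levels of the 8 genes was not tested.

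The genes with profiles most like Glycam1, Madcam1 and Chst4 were taken by Pearson's r of log2(CPM + 1) over the 6 libraries, among 9576 tested genes with a mean of at least 5 CPM. The 6 points fall into 2 sorted fractions, share pools and include the shallow library, so r is a description of these libraries only. The ranking leaned on GFPneg replicate 1: without it, 1 of the 5 genes was kept for Glycam1, 1 for Madcam1 and 0 for Chst4. Glycam1 was matched most closely by Serpina3g (r = 0.995), Susd2 (0.985), Lhfpl2 (0.984), Klhl36 (0.979) and Enpp2 (0.978). Serpina3g was at 35.2, 31.4 and 64.1 CPM in GFPpos and 16.4, 0.77 and 5.56 CPM in GFPneg, with the same order of GFPneg libraries as Glycam1. Madcam1 was matched by Lcp2 (0.993), Abca2 (0.988), Serpina1b (0.986), Rfk (0.985) and Adcy5 (0.984). Lcp2, a signalling adaptor best known from blood cells, was at 7.07, 9.41 and 24.7 CPM in GFPpos and 0, 0.103 and 0 CPM in GFPneg. Chst4 was matched by Serpina1e (0.988), Serpinb9 (0.987), Clu (0.984), Pglyrp1 (0.984) and Rnf125 (0.983). The 3 groups of 5 genes had no gene in common, and Serpina1b and Serpina1e belong to a family of near-identical copies whose reads may be shared.

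Of the rest of the pathway, no gene was called in the fit over all 6 libraries. The other 60 genes were listed by role, not by how they moved, but with earlier results of these data known. They were 8 other scaffolds, 8 genes of sulfation, 8 of fucosylation, 15 of O-glycan initiation and branching, 12 of lactosamine extension and 9 of sialylation. 52 of them passed the filter, and Gcnt3 and B3gnt4 were at 0 counts in all libraries. In edgeR over all 6 libraries 0 were called higher and 0 lower, and 4 had an unadjusted p below 0.05, 2 in each direction. Of all 13873 genes tested, 330 were higher and 400 lower at that unadjusted threshold. The fit with the block and DESeq2 also called 0 in either direction. Of the 52 genes 35 had a positive and 17 a negative log2 fold change, and their median was 0.36, against 0.15 over all 13873 genes tested, of which 7977 were positive. By role the medians were 0.24 for the 8 tested scaffolds, 0.47 for 7 sulfation genes, 0.65 for 6 fucosylation genes, 0.27 for 13 genes of O-glycan initiation and branching, 0.43 for 9 of lactosamine extension and 0.28 for 9 of sialylation.

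The 4 pathway genes with the smallest p are named as the nearest to a call. Podxl, which encodes podocalyxin, a sialomucin that can carry L-selectin ligands, was at 26.0, 7.31 and 26.1 CPM in GFPpos and 13.1, 221 and 114 CPM in GFPneg. Its log2 fold change was -2.60 (SE 0.75, edgeR adjusted p = 0.493), and without GFPneg replicate 1 it fell by 3.07 with an adjusted p of 0.0122. Over the 13 alternatives the adjusted p of Podxl ran from 8.4e-16 (edgeR with the block, without the first pair) to 0.746 (edgeR without GFPpos replicate 2), and the value was negative in all 13. Its fitted direction was thus opposite to that of Glycam1 and Madcam1 among the carriers. The groups of Podxl overlapped through GFPneg replicate 1, which held 4 counts and lay below the GFPpos library of its pair. Cd34, another sialomucin of vessels, was at 59.7, 65.7 and 195 CPM in GFPpos and 45.9, 43.9 and 41.2 CPM in GFPneg (log2 1.30, SE 0.54, edgeR adjusted p = 0.843). The groups of Cd34 did not overlap, and its highest library was again GFPpos replicate 3, without which the log2 fold change of Cd34 was 0.53. The adjusted p of Cd34 ran from 0.00288 (edgeR with the block, without the first pair) to 1 over the 13 alternatives.

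B4galt5, a galactosyltransferase of lactosamine chains, was at 20.2, 14.5 and 49.99 CPM in GFPpos and 0, 4.11 and 6.83 CPM in GFPneg (log2 2.63, SE 0.90, edgeR adjusted p = 0.667). Over the 13 alternatives its adjusted p ran from 0.00449, in the same fit as for Cd34, to 1. St3gal2, a sialyltransferase of O-linked chains, was at 25.0, 20.3 and 25.3 CPM in GFPpos and 197, 33.6 and 19.6 CPM in GFPneg (log2 -1.73, SE 0.75, edgeR adjusted p = 0.856). Its groups overlapped, and without GFPneg replicate 1 the value was -0.16, with an adjusted p of 0.982 (0.292 to 1 over the 13 alternatives). The difference of St3gal2 thus rested on the shallow library.

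**Figure D4:**
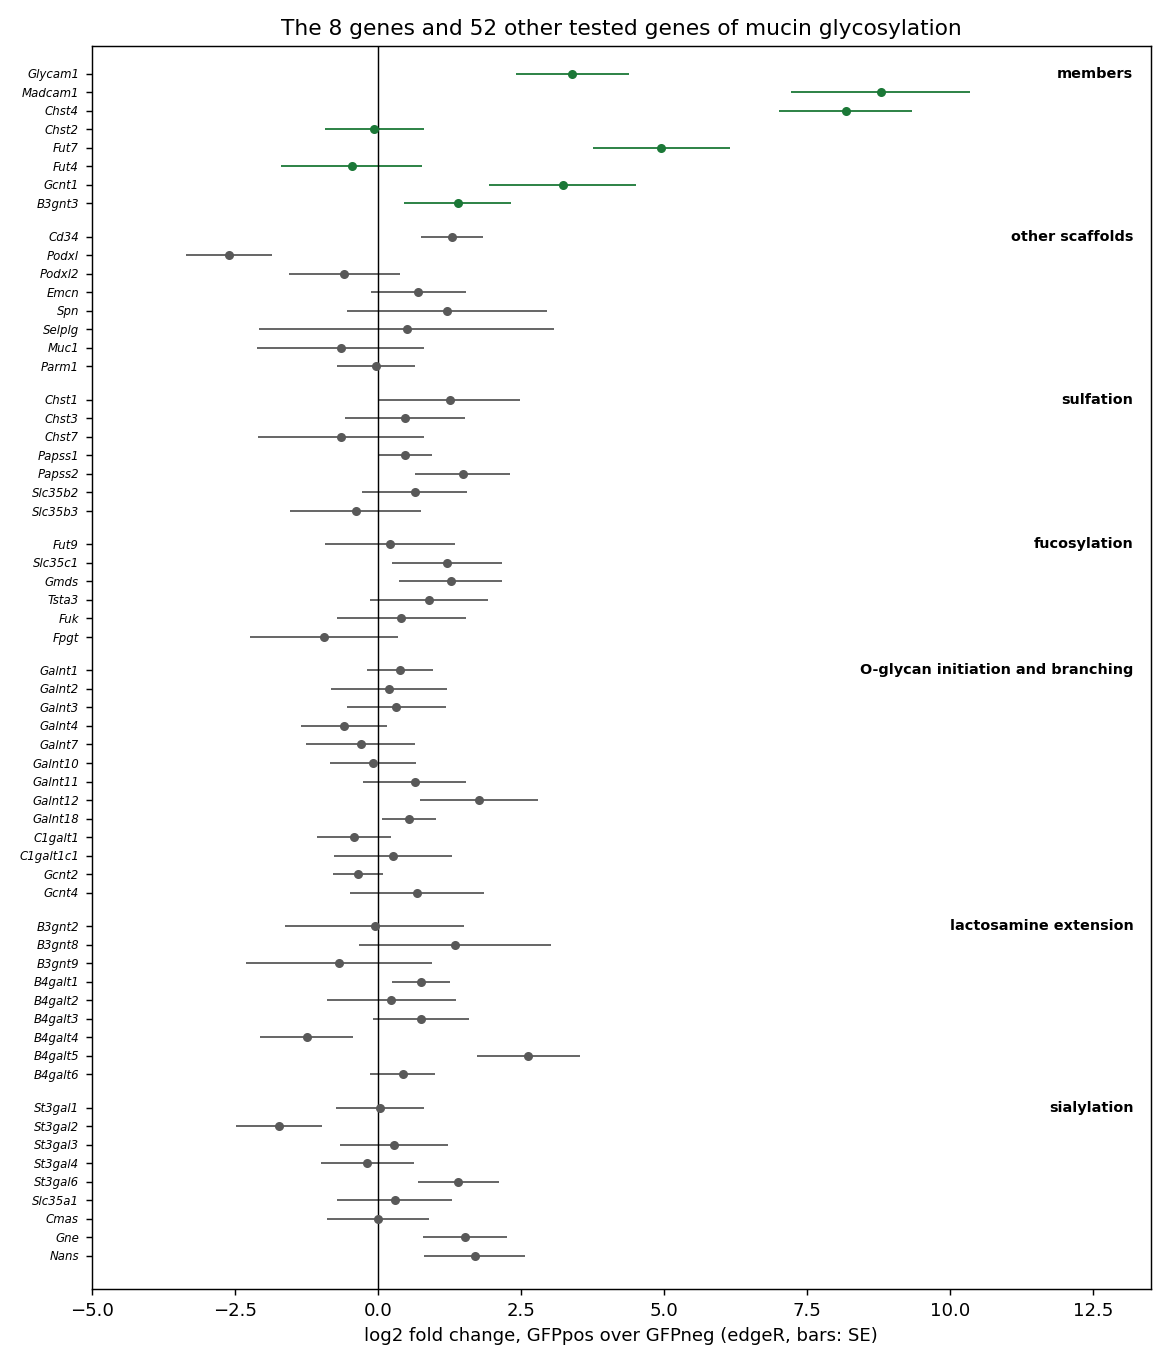
Log2 fold change of GFPpos over GFPneg from edgeR for the 8 genes (green) and for 52 other genes of the pathway by role (grey), with bars of 1 SE and all 6 libraries in the fit. The 52 grey genes lie between Podxl at -2.60 and B4galt5 at 2.63, while Madcam1 and Chst4 lie at 8.79 and 8.17.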

How the data were processed

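Libraries of total RNA were sequenced in paired-end reads of 75 bases. For each of 6 libraries the authors deposited raw counts by gene symbol. The submitters' processing notes name TopHat2, HTSeq, FastQC and cutadapt, with mm10 as the build. The strand setting, the annotation release and all versions were not given in the sources used here. Reads shared by near-identical genes are therefore uncertain. None of the 8 genes overlaps exons of another gene in GENCODE M21, from which positions and exon lengths were taken. Summary rows (the shares of unassigned reads are in the report) stayed out of library sizes and tests.

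Counts were fitted with edgeR 4.0.16 in R 4.3.3 (TMM, filterByExpr by group, quasi-likelihood F test, group as the only term) and adjusted by Benjamini-Hochberg over all genes. The replicate number pairs the libraries, since the series design has GFPpos and GFPneg cells of a number sorted out of 1 pool. Across genes, the deviations from the group means correlated within pairs 1, 2 and 3 at -0.0155, 0.0953 and 0.0107. Alternatives were the replicate block, DESeq2 1.42.0, other scaling, no filter and leaving out libraries. Removal of 5 noncoding features, and the ranking of alike genes without GFPneg replicate 1, were added later, with the data seen. The scripts were tested on simulated data. The genes, lists and alternatives were chosen with earlier results of these data known. The genes named are the 8, the 4 other pathway genes with the smallest p, the first 3 of a marker list where shown, and the 5 most like Glycam1, Madcam1 and Chst4. Others are named where a count needs them. A fold against 0 counts is set against a floor of 3 counts in that library.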

Additional observations from a re-analysis of the deposited data

How the results depend on the processing

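The pairing of both fractions of a pool was tested as a replicate block: it raised the genes called higher from 8 to 43 and lower from 1 to 18, and called 5 of the 8 ligand genes higher. The block without the first pair, which leaves 2 pairs and few residual degrees of freedom, called 386 genes higher and 216 lower, 7 of the 8 ligand genes higher (all but Fut4), and 6 other pathway genes higher (B4galt5, Cd34, Chst1, Gne, Papss2 and St3gal6) and 1 lower (Podxl). DESeq2 called 46 higher and 46 lower, and DESeq2 with the block 89 and 57, among them 4 of the 8. With no filter on low counts 65 and 236 were called, among them 5 of the 8 higher and 1 other pathway gene (Podxl) lower. When 1 library was left out, 2 to 63 genes were called higher, 1 to 29 lower, 0 to 5 of the 8 ligand genes higher and 0 to 1 other pathway genes lower. The highest counts came from leaving out GFPneg replicate 1, and the remaining arm of such fits has 2 libraries. The fitted log2 fold change kept its sign in 13 of 13 alternatives for Glycam1, Madcam1, Chst4, Fut7, Gcnt1 and B3gnt3, in 11 for Fut4 and in 7 for Chst2. It ranged from 2.83 to 6.85 for Glycam1 and from 7.18 to 9.66 for Chst4. With a pseudocount of 5, the sets of 5 most alike kept 4 genes for Glycam1, 3 for Madcam1 and 3 for Chst4, and without GFPneg replicate 1 they kept 1, 1 and 0. Other scaling and removal of the 5 noncoding features called 2 of the 8 higher. The cause of these differences was not tested. Depth limits GFPneg replicate 1 most: Fut7, Chst4, Fut4 and B3gnt3 rest on 1 to 6 counts there.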

Other observations

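Abca2, a lipid transporter, was among the 5 genes most like Madcam1 and is the only annotated gene within 10 kilobases of Fut7, which was noticed after the values were seen. On mm10 it lies on chromosome 2 from 25428703 to 25448540 on the plus strand, 2329 bases after the end of Fut7. Its level was 69.2, 77.0 and 74.4 CPM in GFPpos and 23.0, 24.4 and 25.5 CPM in GFPneg, and the groups did not overlap. The value of GFPneg replicate 1 rests on 7 counts. The log2 fold change was 1.59 (SE 0.52, edgeR adjusted p = 0.664), with an adjusted p of 0.907 under the replicate block and 0.0498 without GFPneg replicate 1. Fut7 differed by more, and its GFPpos libraries were less alike, at 34.8, 36.5 and 84.8 CPM.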
